A study of Mus musculus with 12 samples.

Results

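The 9 genes described here encode components and receptors of the complement system. They are *C1qa*, *C1qb* and *C1qc*, *C2* and *Cfb*, *C3* and *C4b*, and *C3ar1* and *C5ar1*. They were taken by symbol from a table of counts for 47069 mouse genes, and each symbol matched a single Ensembl gene. The set was chosen with earlier results of the same mice in view, so the levels and differences of these 9 genes are given as descriptions, with errors and without p-values.

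Complement is a cascade of plasma and tissue proteins that marks microbes, immune complexes and dying cells. C1q, built from the A, B and C chains, recognises such surfaces and opens the classical pathway, in which C4 and C2 form an enzyme that cleaves C3. In the alternative pathway factor B takes the place of C2. The small fragments C3a and C5a signal through the receptors C3AR1 and C5AR1. In marrow and bone, C1q chains are products of macrophages, and C5AR1 is abundant on neutrophils and other myeloid cells.

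RNA came from tibia shafts of male mice aged 8 weeks, flushed of marrow, with n = 4 mice in each of 3 groups. Jrt;Sost-het mice carried *Col1a1*Jrt/+, a dominant model of severe osteogenesis imperfecta, and by the study's description *Sost*+/-. Jrt;Sost-ko mice carried *Col1a1*Jrt/+ and *Sost*-/-, so both Jrt groups shared the *Col1a1* allele and at least 1 inactive *Sost* allele, and WT mice had neither change. All were of mixed FVB/C57BL6 background, and the Jrt allele and the inactive *Sost* allele on the same chromosome came from a recombinant mouse, whereas WT mice came from a parallel colony, so colony and genotype cannot be told apart in comparisons with WT. The series held no *Sost* wild-type Jrt group, a limit that the paper ascribes to the close linkage of *Col1a1* and *Sost*. The numbers of the mice only name them within a group.

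Libraries held between 24366061 and 44418863 counts on genes. *Sost*, which encodes the osteocyte Wnt inhibitor sclerostin, had between 27.1 and 70.2 CPM (counts scaled to a common library size) in Jrt;Sost-het mice, between 28.5 and 72.4 CPM in WT mice and between 0.328 and 1.28 CPM in Jrt;Sost-ko mice. The fitted log2 difference of *Sost* was -5.87 in Jrt;Sost-ko relative to Jrt;Sost-het mice (adjusted p = 0.0130, edgeR). Bone markers were present, with 9 of 9 osteoblast and osteocyte genes above the count filter. Markers of neutrophils, red cells and muscle were also abundant, and muscle transcripts summed to between 24.2 and 21708 CPM over the 12 mice. WT mice 3 and 4 stood apart by keratin transcripts of the epidermis (*Krt1*, *Krt5*, *Krt10*, *Krt14*), which summed to 87.0 and 460.5 CPM, against at most 2.09 CPM in every other mouse. Several results that involve WT mice are therefore given with and without these 2 animals.

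The members sit in a few places of the genome (GRCm38). The C1q chain genes lie side by side on the minus strand of chromosome 4, *C1qb* from 136880129 to 136886187, *C1qc* from 136889804 to 136893065 and *C1qa* from 136895917 to 136898803. *C4b* (34728380 to 34743882), *Cfb* (34856374 to 34862518) and *C2* (34862604 to 34898265) lie on the minus strand of chromosome 17, in the major histocompatibility complex, and in coordinates *Cfb* ends 85 bp before *C2* begins. *C3* is farther along the same chromosome, from 57203970 to 57228136. *C3ar1* is on chromosome 6 from 122847138 to 122856161 and *C5ar1* on chromosome 7 from 16246743 to 16259540, both on the minus strand. All 9 are annotated as protein coding.

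Since the C1q chains moved together in these mice (below), their promoters are shown. The RefSeq promoter table (GRCm38.p6) held 5 of the 9 members, namely *C1qb*, *C1qc*, *C3*, *C3ar1* and *C5ar1*. The stretches below are the bases upstream of the outermost start annotated by RefSeq or GENCODE M21, chr4:136886201-136886450 for *C1qb* and chr4:136893066-136893164 for *C1qc*, both from the minus strand, with the core GAGGAA of the myeloid factor PU.1 (TTCCTC when read on the opposite strand) in capitals.
C1qb: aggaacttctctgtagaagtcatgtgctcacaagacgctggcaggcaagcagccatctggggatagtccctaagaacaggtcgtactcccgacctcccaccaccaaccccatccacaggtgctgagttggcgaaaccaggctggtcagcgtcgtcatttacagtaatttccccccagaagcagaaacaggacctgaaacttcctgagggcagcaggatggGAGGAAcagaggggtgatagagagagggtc
C1qc: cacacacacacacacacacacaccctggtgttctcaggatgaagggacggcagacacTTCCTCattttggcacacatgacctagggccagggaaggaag
It was searched on both strands of 250 bases before and 50 bases after the RefSeq start. Positions are counted from the RefSeq start, which in *C1qc* lies downstream of the GENCODE start at which the printed stretch ends. The motif was found once in *C1qb*, at position -30, once in *C1qc*, at position -193, and not in the windows of *C3*, *C3ar1* and *C5ar1*. It was held by 28.3% of all 32851 promoters, so a match is common. The core of the interferon-stimulated response element, GAAANNGAA, was found in *C5ar1* alone among the 5, at position -66, and in 8.56% of all promoters. The gamma-activated site TTCNNNGAA was found in none of the 5 and in 8.30% of all.

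To compare genes with one another, CPM was divided by the length of the merged exons. By this measure *C3* was the highest member, at 102 CPM per kb (range 75.2 to 117 over 12 mice), and ranked 366 of 17185 genes that passed the count filter. *C1qa* followed at 86.7 CPM per kb (72.4 to 102) and *C1qb* at 82.4 CPM per kb (65.4 to 101). *C3* was above *C1qa* in 11 of 12 mice, and *C1qa* above *C1qb* in 11 of 12 mice, although the ranges overlapped.

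*C1qc*, at 43.6 CPM per kb, was below *C1qb* and above *C4b* in 12 of 12 mice, with no overlap of the ranges. Its distance from *C1qb* came mostly from the annotated exon length, 1.93 kb against 1.09 kb. Before division by length the means were 84.2 CPM for *C1qc* and 89.6 CPM for *C1qb*. *C4b*, at 17.4 CPM per kb, and *C5ar1*, at 16.4 CPM per kb, were not ordered, with *C4b* higher in 7 of 12 mice. The lowest members were *C2* at 2.42, *C3ar1* at 1.78 and *Cfb* at 1.04 CPM per kb, each above the next in 11 of 12 mice. The 9 genes together took between 0.0720% and 0.107% of a library's counts, and *C3* alone gave between 52.2% and 61.1% of that sum.

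**Figure D1:**
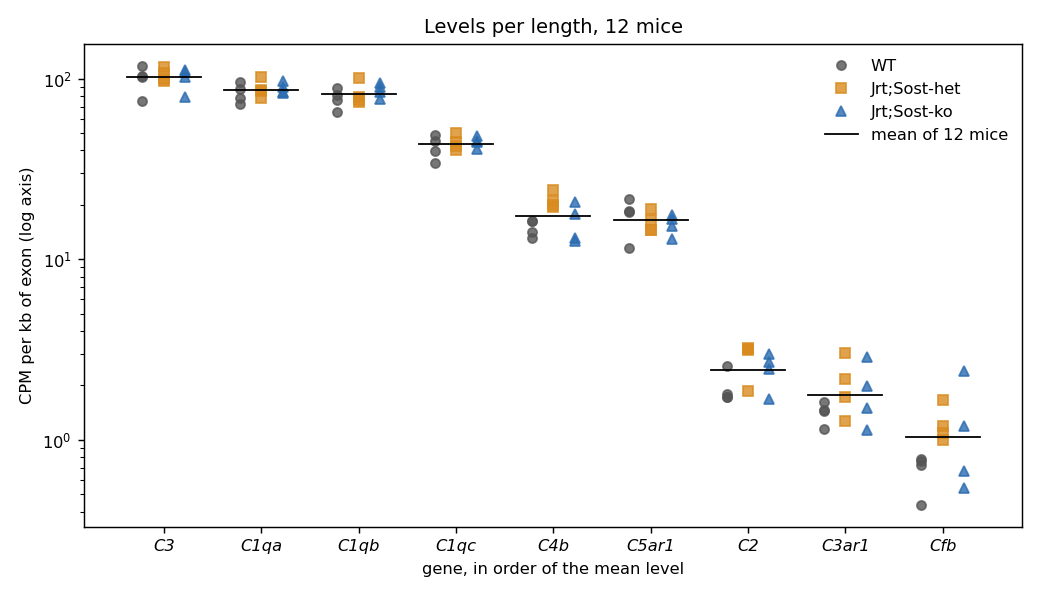
Level of each member in CPM per kb of exon (log axis), with 1 point per mouse, shape and colour giving the group, and a line at the mean of 12 mice. *C3* and the C1q chains lie at 34.2 CPM per kb or above in every mouse, whereas *C2*, *C3ar1* and *Cfb* lie at 3.20 CPM per kb or below.

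The place of *C2* and *Cfb* in this order depended on the annotation. A further protein-coding gene of the same strand, *Gm20547*, overlaps 42.8% of the exon bases of *C2* and 79.5% of those of *Cfb*, and it had 0 counts in all 12 mice. How reads in shared bases were counted is not given in the sources used here. Dividing by the unshared exon bases only gave 4.23 CPM per kb for *C2* and 5.05 CPM per kb for *Cfb*, which put *Cfb* above *C2*. This length was chosen after the annotation had been read. *Zbtb12*, on the opposite strand, overlaps 4.16% of the exon bases of *C2*, and without a stated strand setting its reads cannot be told apart from those of *C2*. Of the 100-base windows in *C4b* transcripts, 15.2% also occur in its paralog *C4a*, which had between 0.319 and 1.11 CPM, where *C4b* had between 71.8 and 137 CPM. No such window was shared by the other 6 members.

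The recognition chains differed little between groups. In whole-tissue RNA such as this, fewer cells of a type and less RNA per cell cannot be told apart. *C1qb* had 96.6, 83.2, 88.2 and 71.1 CPM in the 4 WT mice, 80.7, 86.5, 110 and 83.3 CPM in Jrt;Sost-het mice and 103, 91.4, 84.3 and 97.3 CPM in Jrt;Sost-ko mice. The groups overlapped throughout, and the highest and the lowest value belonged to Jrt;Sost-het mouse 3 and WT mouse 4. *C1qa* was 86.8 ± 10.5 CPM in WT, 91.4 ± 10.3 CPM in Jrt;Sost-het and 92.4 ± 6.42 CPM in Jrt;Sost-ko mice (mean ± SD, n = 4). *C1qc* was 80.98 ± 12.01, 85.5 ± 8.24 and 86.2 ± 5.58 CPM in the same order. In Jrt;Sost-ko relative to Jrt;Sost-het mice the log2 fold changes of the 3 chains lay between 0.02 and 0.06, and the widest 95% confidence interval, that of *C1qb*, ran from -0.18 to 0.30. Over fits without single mice they ranged from -0.03 to 0.17. In Jrt;Sost-ko against WT mice the value of *C1qb* was 0.15 (-0.08 to 0.38), or 0.06 without WT mice 3 and 4.

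The 3 chains held a nearly fixed proportion to each other. *C1qb* had 0.992 ± 0.0469 counts per count of *C1qa* over the 12 mice, a coefficient of variation of 4.72%, and *C1qc* had 0.934 ± 0.0403, a coefficient of variation of 4.32%. Against *Adgre1*, which encodes the macrophage marker F4/80, the count of *C1qa* varied by 7.85%. Against *Csf1r*, the receptor of the macrophage growth factor, it varied by 13.8%, and against *Cd163*, a further macrophage marker, by 20.7%. These ratios were chosen after the data had been seen.

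*C4b*, which encodes the C4 protein of the classical pathway, was higher in Jrt;Sost-het than in WT mice. It had 80.8, 74.9, 93.0 and 92.1 CPM in the 4 WT mice, 114, 137, 120 and 111 CPM in Jrt;Sost-het mice and 102, 117, 71.8 and 74.3 CPM in Jrt;Sost-ko mice. Every Jrt;Sost-het mouse was above every WT mouse, whereas Jrt;Sost-ko mice 1 and 2 were above every WT mouse too and mice 3 and 4 were below every WT mouse. The log2 fold change was 0.50 (95% confidence interval 0.28 to 0.72) in Jrt;Sost-het against WT mice, a 1.41-fold difference, and 0.64 without WT mice 3 and 4. In the same comparison 8 of 10 mesenchymal stroma markers had log2 fold changes above 0, with a median of 0.24, and none was called. They ran from -0.05 for *Lepr* to 0.83 for *Dpt*. Other lists moved as well. Medians were above 0 for markers of adipocytes (0.54), endothelium (0.21) and osteoblasts and osteocytes (0.16), and below 0 for neutrophils (-0.08) and red cells (-0.22). The summed stroma level was between 3488 and 5975 CPM in WT and between 4834 and 6013 CPM in Jrt;Sost-het mice, and its part in the *C4b* value was not tested. The log2 fold change of *C4b* was -0.40 (-0.76 to -0.04) in Jrt;Sost-ko relative to Jrt;Sost-het mice. In Jrt;Sost-ko against WT mice it was 0.10 (-0.28 to 0.48), or -0.04 without Jrt;Sost-ko mouse 2 and 0.23 without WT mice 3 and 4.

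*Cfb*, the alternative pathway protease, had the lowest counts of the 9 members, between 36 and 190 per mouse. It had 2.20, 1.23, 2.15 and 2.05 CPM in WT mice, 2.80, 4.70, 3.08 and 3.35 CPM in Jrt;Sost-het mice and 6.76, 3.35, 1.52 and 1.90 CPM in Jrt;Sost-ko mice. All values of the Jrt;Sost-het group were above those of WT mice, and the Jrt;Sost-ko group spanned both. The log2 fold change in Jrt;Sost-het against WT mice was 0.86 (95% confidence interval 0.31 to 1.42), and 1.02 without WT mice 3 and 4. The value in Jrt;Sost-ko against WT mice, 0.82 (-0.24 to 1.89), rested on Jrt;Sost-ko mouse 1 and was 0.23 without it. Relative to Jrt;Sost-het mice, the Jrt;Sost-ko group differed by -0.05 (-1.05 to 0.95), by -0.63 without that mouse and by 0.20 without Jrt;Sost-ko mouse 3. Jrt;Sost-ko mouse 1 had the highest summed level of 15 interferon response genes, 1811 CPM, against between 639 and 1083 CPM in the other 11 mice. After subtraction of group means (below), *Cfb* had r = 0.60 with this list over the mice (p = 0.259, adjusted p = 0.549, permutation test). Without the 2 mice farthest from the list's median r was -0.35. The part of the interferon response in the *Cfb* differences between groups was not tested.

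*C2*, the classical pathway protease, had 6.98, 6.71, 9.91 and 6.65 CPM in WT mice, 7.24, 12.3, 12.2 and 12.4 CPM in Jrt;Sost-het mice and 11.6, 10.5, 6.50 and 9.53 CPM in Jrt;Sost-ko mice. A single mouse lay outside the others in each of the first 2 groups, WT mouse 3 above and Jrt;Sost-het mouse 1 below, and the groups overlapped. Log2 fold changes were 0.55 (95% confidence interval 0.06 to 1.03) in Jrt;Sost-het against WT, 0.33 (-0.14 to 0.81) in Jrt;Sost-ko against WT and -0.21 (-0.71 to 0.29) in Jrt;Sost-ko relative to Jrt;Sost-het mice. The last was -0.07 without Jrt;Sost-ko mouse 3 and -0.37 without Jrt;Sost-het mouse 1, and the value for Jrt;Sost-ko against WT was 0.22 without Jrt;Sost-ko mouse 1.

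*C3*, the central component on which the pathways converge, had 522, 604, 534 and 387 CPM in WT mice, 510, 599, 552 and 497 CPM in Jrt;Sost-het mice and 562, 575, 405 and 528 CPM in Jrt;Sost-ko mice. The groups overlapped and the 2 lowest values were those of WT mouse 4 and Jrt;Sost-ko mouse 3. Its log2 fold changes lay between -0.06 and 0.08 in the 3 comparisons. Without WT mice 3 and 4 they changed sign, to -0.05 for Jrt;Sost-het and -0.12 for Jrt;Sost-ko against WT mice, and without Jrt;Sost-ko mouse 3 the value relative to Jrt;Sost-het was 0.04. With all mice the widest 95% confidence interval, that of Jrt;Sost-ko against WT mice, reached from -0.34 to 0.38.

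Of the receptors, *C3ar1* had 6.93, 4.96, 6.28 and 6.17 CPM in WT mice, 5.46, 13.0, 7.47 and 9.30 CPM in Jrt;Sost-het mice and 8.57, 12.4, 6.42 and 4.85 CPM in Jrt;Sost-ko mice. Both Jrt groups had a wider range than the WT group and overlapped with it. Log2 fold changes against WT mice were 0.53 (95% confidence interval -0.04 to 1.10) in Jrt;Sost-het and 0.41 (-0.22 to 1.04) in Jrt;Sost-ko mice. Without mouse 2 of the Jrt group concerned they were 0.28 and 0.12. *C5ar1* had 47.1, 55.5, 47.7 and 29.8 CPM in WT mice, 37.4, 42.5, 49.0 and 37.4 CPM in Jrt;Sost-het mice and 39.2, 45.1, 33.2 and 43.1 CPM in Jrt;Sost-ko mice. Its values overlapped, with WT mice holding both the highest and the lowest. Against WT mice the log2 fold change of *C5ar1* was -0.11 in Jrt;Sost-het mice, or -0.29 without WT mice 3 and 4, and -0.16 in Jrt;Sost-ko mice, or -0.35 without them. Without WT mouse 2 these were 0.001 and -0.05.

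**Figure D2:**
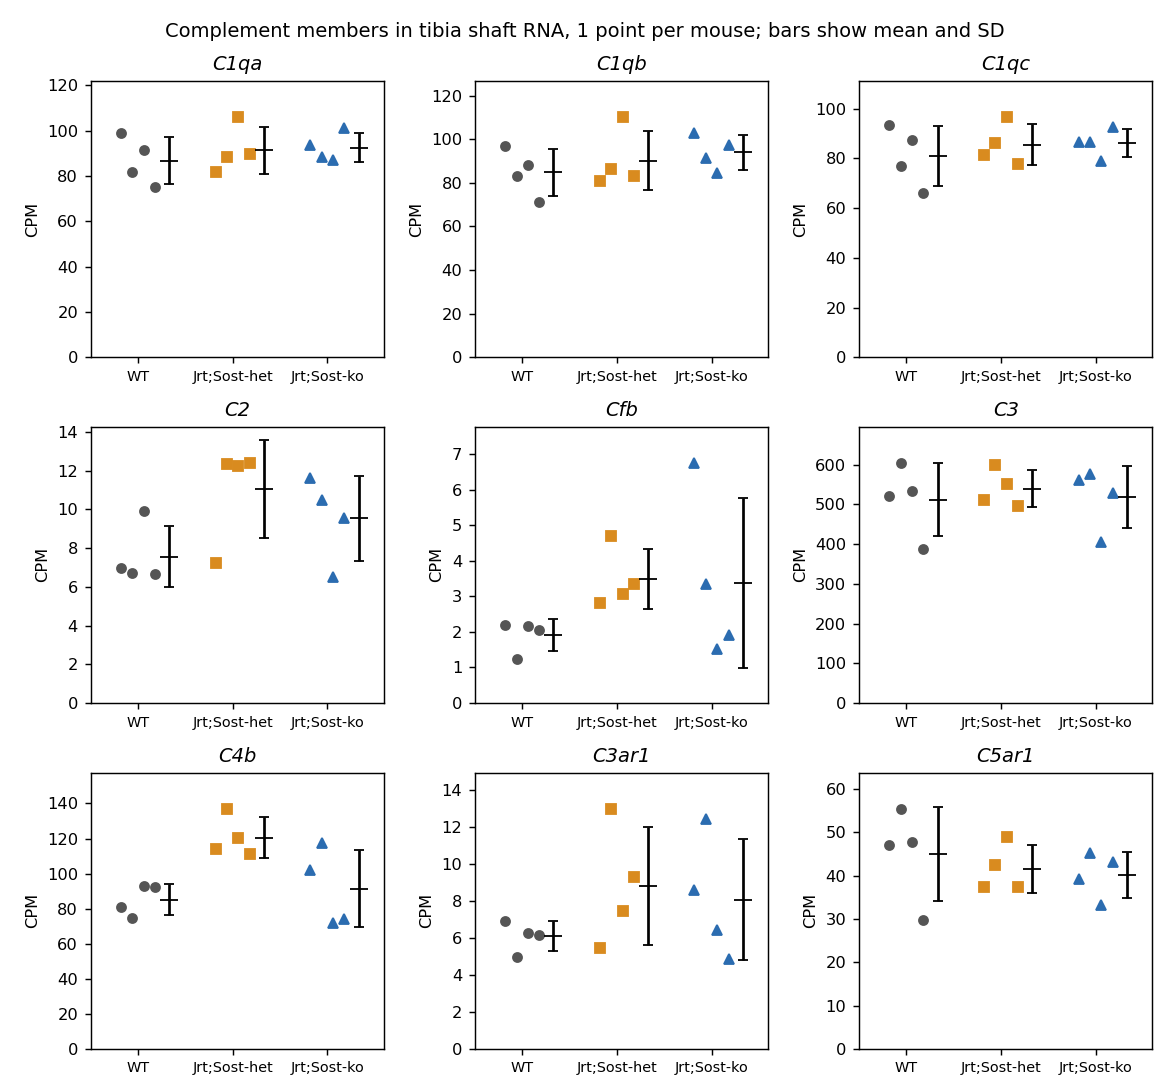
CPM of the 9 members in WT, Jrt;Sost-het and then Jrt;Sost-ko mice, with 1 point per mouse in each panel and the mean and SD (n = 4) beside them. *C4b* and *Cfb* are the panels in which all Jrt;Sost-het mice lie above all WT mice.

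Over all genes tested, edgeR called 1 of 16739 in Jrt;Sost-ko relative to Jrt;Sost-het mice (0.00597%), 0 of 16775 in Jrt;Sost-het against WT mice (0%) and 1 of 17155 in Jrt;Sost-ko against WT mice (0.00583%), and the called gene was *Sost*. At an unadjusted p under 0.05 there were 841, 359 and 668 genes, and DESeq2 on the same filtered genes called 15, 0 and 14, or 7, 4 and 18 without that filter and with its own filtering at the default. None of the 9 members was called by edgeR in any comparison. DESeq2 called none of them on the filtered genes, and *C4b* in Jrt;Sost-het against WT mice when run without the filter. Groups did not overlap in CPM for 3.05%, 1.5% and 2.36% of the genes in the 3 comparisons, and for 0, 2 and 0 of the 9 members. The members had been chosen from these contrasts, and nothing is read from their counts. The median log2 fold change of the 9 members was -0.05 in Jrt;Sost-ko relative to Jrt;Sost-het, 0.09 in Jrt;Sost-het against WT and 0.10 in Jrt;Sost-ko against WT mice, where the median of all genes tested was within 0.01 of 0. The comparisons with WT share the WT mice and are not independent of each other.

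**Figure D3:**
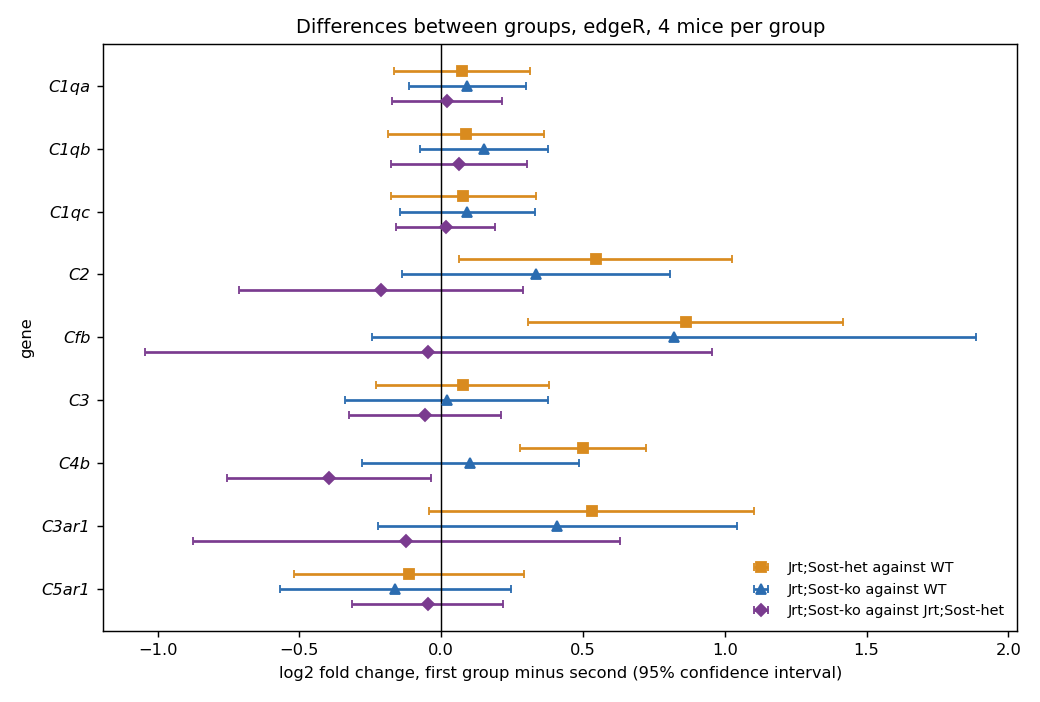
Log2 fold change of each member (first group minus second, edgeR) with its 95% confidence interval, in Jrt;Sost-het against WT, Jrt;Sost-ko against WT and Jrt;Sost-ko relative to Jrt;Sost-het mice. The C1q chains and *C3* lie at most 0.15 from 0, and *C2*, *Cfb*, *C4b* and *C3ar1* lie to the right of 0 in both comparisons with WT mice.

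Other genes of the pathway were counted from a list of 44. Of these, 32 passed the filter and 0 were called in any comparison (edgeR, smallest adjusted p = 0.901), as were at most 0.00597% of all genes, so the count says nothing particular to them. Their log2 fold changes were above 0 for 9 of 32 genes in Jrt;Sost-ko relative to Jrt;Sost-het, 22 of 32 in Jrt;Sost-het against WT and 13 of 32 in Jrt;Sost-ko against WT mice. The medians were -0.07, 0.08 and -0.05.

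Among recognition molecules and early proteases, *Fcnb*, a ficolin of myeloid cells, had 173 CPM on average over the 12 mice, and the scavenger receptor gene *Colec12* had 82.0 CPM. *Cfd*, the factor D protease that acts on factor B and is a known adipocyte product, had 130 ± 41.1 CPM in WT, 218 ± 84.3 CPM in Jrt;Sost-het and 179 ± 50.6 CPM in Jrt;Sost-ko mice (SD, n = 4). Its log2 fold change in Jrt;Sost-het against WT mice was 0.74 (95% confidence interval 0.04 to 1.44, adjusted p = 1, edgeR). Log2 fold changes of 7 adipocyte markers were above 0 for 7 of 7 in both comparisons with WT mice, and their part in the *Cfd* value was not tested. *Cfp*, which encodes the convertase stabiliser properdin, had 111 CPM on average.

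Among the soluble regulators, *Serping1* (C1 inhibitor) had 277 CPM on average. *Clu*, encoding clusterin, an inhibitor of the terminal complex, was lower in every Jrt;Sost-ko mouse than in every mouse of the other groups, with log2 fold changes of -0.28 against Jrt;Sost-het (adjusted p = 0.901, edgeR) and -0.21 against WT mice (adjusted p = 1, edgeR). *Cpn1*, encoding a subunit of carboxypeptidase N, which inactivates C3a and C5a, was lower in every Jrt;Sost-ko than in every Jrt;Sost-het mouse, at 0.287 ± 0.128 against 0.741 ± 0.192 CPM (SD, n = 4), a log2 fold change of -1.34 (adjusted p = 0.901, edgeR). Both genes were singled out after their values had been seen. Among membrane regulators *Cr1l* had 85.2 and *Cd55* 65.99 CPM, and among receptors *Itgb2* had 438 and *Itgam* 174 CPM, the subunits of complement receptor 3. Terminal components were low, with *C6* at 4.76 and *C7* at 4.24 CPM, and *C8b* had no count in any mouse, nor did *Mbl2* of the recognition molecules.

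Members varied together to different degrees between mice of the same group. After subtraction of the group means from log2 CPM, Pearson's r over 12 mice was between 0.90 and 0.92 for the 3 pairs of C1q chains. It was 0.90 for *C3* and *C5ar1*, 0.78 for *C4b* and *C3ar1* and 0.77 for *Cfb* and *C4b*. The C1q chains also varied with *C5ar1* (0.60 to 0.75) and *C3* (0.39 to 0.61), where *C4b*, *Cfb* and *C3ar1* paired at 0.64 to 0.78. Between a C1q chain and *C4b* or *C3ar1*, r was between -0.11 and 0.07. The points share libraries, and these values are descriptions.

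**Figure D4:**
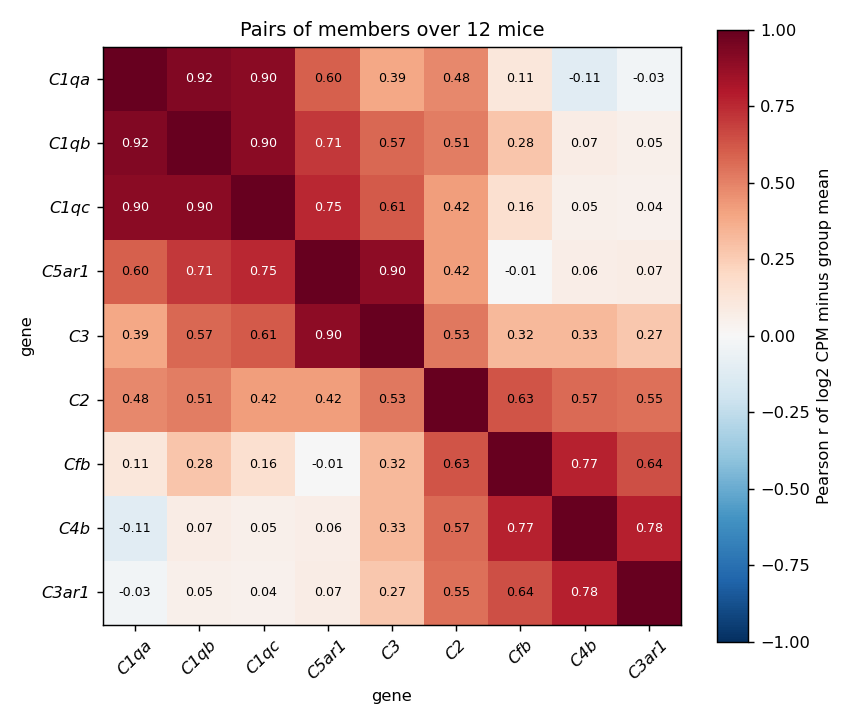
Pearson's r for each pair of members over 12 mice, computed on log2 CPM after subtraction of the group mean, with the colour scale from -1 to 1. The C1q chains form a block at 0.90 or above, *C5ar1* pairs with *C3* at 0.90, and *Cfb*, *C4b* and *C3ar1* pair at 0.64 to 0.78.

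Each member was then set against the mean log2 CPM of 4 lists, namely markers of macrophages (12 genes), neutrophils (11 genes) and mesenchymal stroma (10 genes) and interferon response genes (15 genes). Of the 36 relations, tested by 100000 permutations within groups with Benjamini–Hochberg adjustment, 6 passed the threshold for Pearson's r. The members, the lists and the tests were chosen with earlier results of these data known, and the adjustment does not account for that choice. *C5ar1* followed the neutrophil list (r = 0.96, p = 0.00046, adjusted p = 0.0166; rho = 0.92, p = 0.00066, adjusted p = 0.0227). *C3* also followed it (r = 0.93, p = 0.0034, adjusted p = 0.0302), though its rho of 0.70 did not pass (p = 0.0270, adjusted p = 0.139). *C1qb* (r = 0.82, p = 0.0026, adjusted p = 0.0302) and *C1qc* (r = 0.85, p = 0.0068, adjusted p = 0.0407) followed the macrophage list, and *C1qa* had a similar r of 0.83 (p = 0.0107, adjusted p = 0.0551).

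For these C1q chains rho was 0.77 (p = 0.0088, adjusted p = 0.0792) for *C1qb*, 0.90 (p = 0.00405, adjusted p = 0.0486) for *C1qc* and 0.77 (p = 0.0269, adjusted p = 0.139) for *C1qa*. *C4b* followed the stroma list (r = 0.77, p = 0.0013, adjusted p = 0.0227; rho = 0.80, p = 0.0013, adjusted p = 0.0227), as did *C3ar1* by r (0.66, p = 0.0046, adjusted p = 0.0328) but not by rho (0.59, p = 0.0576, adjusted p = 0.230). *C1qb* and *C1qc* had r of 0.69 (p = 0.0276, adjusted p = 0.124) and 0.70 (p = 0.0431, adjusted p = 0.172) with the neutrophil list and did not pass (permutation test). *C2* and *Cfb* passed with none of these lists, and no member passed with the interferon list. The other marker lists, such as that of adipocytes, were not set against the members.

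When the 2 mice farthest from a list's median were left out, r was 0.90 for *C5ar1* and 0.73 for *C3* with neutrophil markers, 0.89 for *C1qb* and 0.89 for *C1qc* with macrophage markers, and 0.80 for *C4b* and 0.56 for *C3ar1* with stroma markers. None of the 6 relations passed the adjustment over the 10 mice left, and the relations of *C3* and *C3ar1* rested most on those mice (adjusted p = 0.403 for both, permutation test). Without WT mice 3 and 4, *C5ar1* with neutrophil (r = 0.95) and *C1qb* with macrophage markers (r = 0.86) passed (both adjusted p = 0.0443, permutation test).

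**Figure D5:**
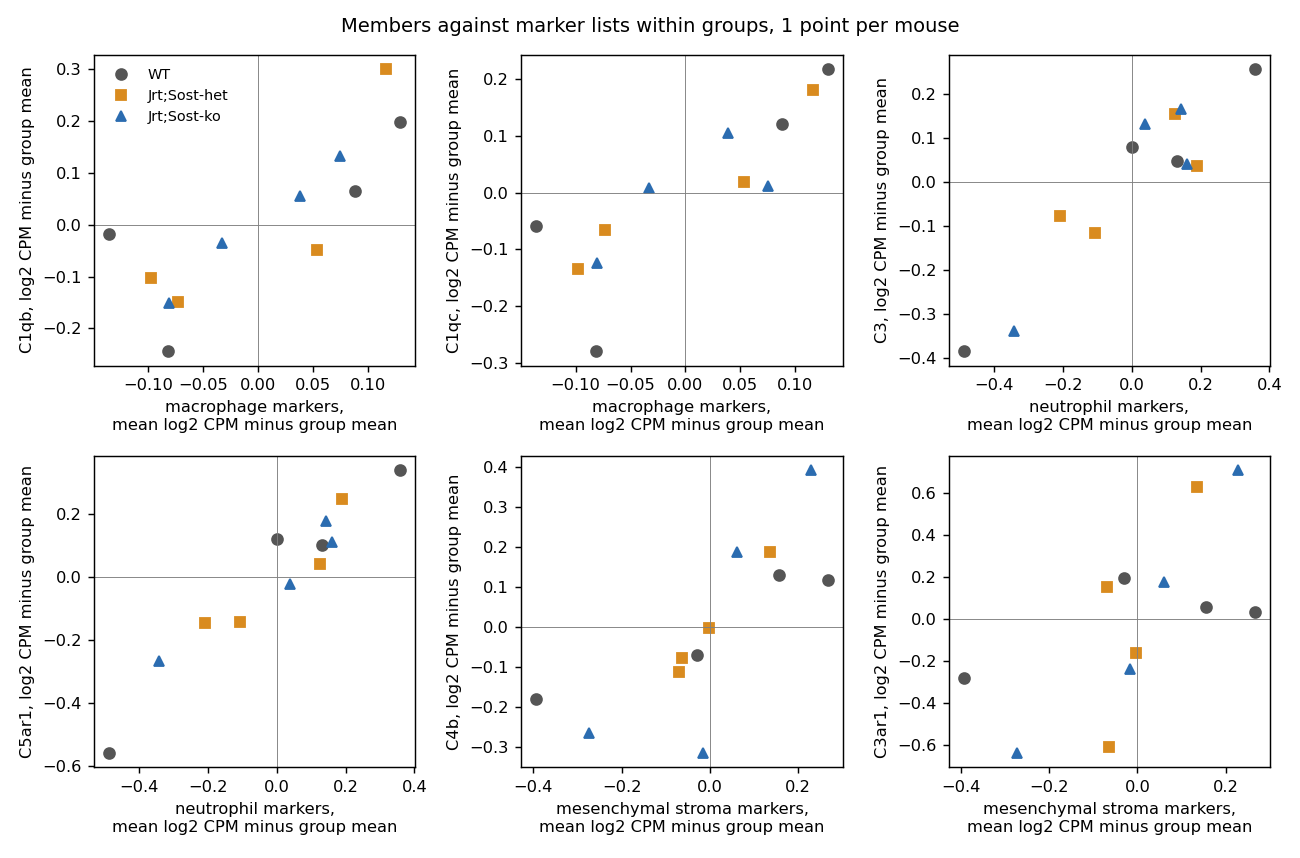
Members (vertical axis) against the mean of a marker list (horizontal axis), both as log2 CPM minus the group mean, with 1 point per mouse and shape and colour giving the group. The panels show the 6 relations past the threshold, with r between 0.66 (*C3ar1*, stroma) and 0.96 (*C5ar1*, neutrophil).

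The genes most like each member were sought among 17236 others by the same centred r over 12 mice. For *C5ar1* they were *Actb* (r = 0.99), *4632428N05Rik* (0.98) and *Cebpe* (0.98), the last a transcription factor of granulocyte maturation. For *C3* they were *Cpne3* (0.98), *Rgs19* (0.98) and *Chil3* (0.97), which encodes a chitinase-like protein of myeloid cells. For *C4b* they were *Sema6b* (0.94), *Upp1* (0.94) and *Ugdh* (0.93), and for *C3ar1* *Ttc21a* (0.90), *Mrap* (0.90) and *Cpne7* (0.89).

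*Tex10* and *Zfp35* were among the nearest genes of both *C1qb* (0.95 and 0.91) and *C1qc* (0.90 and 0.90), with *Casp8* (0.87) and *Lrrc36* (0.91) as the third gene of each. *C1qa* was nearest to *Fam50a* (0.91), *6430550D23Rik* (0.90) and *Gm6712* (0.90). *C2* was nearest to *Serpina3c* (0.96), *Timp4* (0.92) and *Cd300lg* (0.92), and *Cfb* to *Mmd2* (0.94), *Gm32391* (0.94) and *Ly6a* (0.93), of which *Ly6a* is a known interferon-induced gene. None of these genes belonged to the marker lists.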

How the data were processed

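The authors aligned paired-end reads of tibia shaft RNA to GRCm38 with STAR and deposited raw counts per Ensembl gene for 12 mice, without normalization. The counting tool, its strand setting and the annotation release are not given in the sources used here, although the submitters' processing notes also name Cufflinks, Cuffdiff, DESeq and bcl2fastq 2.20. The authors' comparison tables, which hold fold changes and p-values, and separate count files of single mice were not used, and the counts of each mouse come from the joint matrix. Of the 47069 gene identifiers, 98.9% were found in GENCODE M21, which gave positions and exon lengths.

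Groups came from the genotype labels, and the *Sost*+/- genotype of Jrt;Sost-het mice from the paper. For each comparison the 8 mice concerned were fitted with edgeR 4.0.16 under R 4.3.3 (TMM, filterByExpr, glmQLFit and glmQLFTest), with Benjamini–Hochberg adjustment over all genes tested and a threshold of 0.05. Depth was between 24366061 and 44418863 counts, and the p-values of edgeR set the difference between groups against the spread between mice. CPM used TMM factors, and log2 CPM a prior count of 2. Where a symbol had several identifiers, that in GENCODE M21 with the most counts was taken. Correlations used 100000 permutations within groups (Python, scipy), two-sided. The fit was tested on simulated counts.

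The members, the lists and the tests were chosen with earlier results of these data known. The text names the 9 members, *Sost*, other complement genes with an adjusted p under 0.05 (there were none), the 2 with the highest mean CPM of each role, marker lists, and the 3 genes most like each member. *Cfd*, *Cfp*, *Serping1* and the other complement genes named fall under that rule, except *Clu*, *Cpn1*, *C8b* and *Mbl2*, and 1 gene that the rule names is not reported here. Alternatives were DESeq2's size factors, DESeq2 1.42.0, no filter, all 12 mice in a single fit, scaling that ignored neutrophil, erythroid and muscle genes, and fits without single mice or without WT mice 3 and 4. Exon length without shared bases, DESeq2 without a filter (its own filtering set for 0.05 or 0.1) and TMM factors from all genes were added after the data were seen.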

Additional observations from a re-analysis of the deposited data

Results flagged for a closer look

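In 4 of the 123 groups of 4 mice examined (9 members and 32 other complement genes in 3 groups), a single mouse stood apart from the others by Dixon's ratio of its gap to the group's range. Chance alone gives about 1 in 20 groups, here 6.15. *C2* had a ratio of 0.899 in WT mice, where mouse 3 had 9.91 CPM and the others between 6.65 and 6.98 CPM. It had a ratio of 0.968 in Jrt;Sost-het mice, where mouse 1 had 7.24 CPM and the others between 12.2 and 12.4 CPM. *Cfb* had a ratio of 0.843 in WT mice, where mouse 2 had 1.23 CPM and the others between 2.05 and 2.20 CPM. *Csmd1*, a membrane regulator, had a ratio of 0.883 in WT mice, where mouse 2 had 3.32 CPM and the others between 4.74 and 4.92 CPM. No cause was tested.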

How the results depend on the processing

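Of 423 log2 fold changes of the members under the alternatives, 416 stayed within 1 standard error of the reported value. DESeq2 on the genes that passed edgeR's filter called 15 genes for Jrt;Sost-ko relative to Jrt;Sost-het, 0 in Jrt;Sost-het against WT and 14 in Jrt;Sost-ko against WT mice, and none of the members. DESeq2 was first run without that filter, which gave 18, 4 and 18 genes and 1 member, *C4b* in Jrt;Sost-het against WT mice. The filter was put before DESeq2 after this had been seen, so that the tool alone would change, and *C4b* was then not called. A later run without the filter, with independent filtering at its default of 0.1 in place of 0.05, gave 7, 4 and 18 genes and called *C4b* again. With and without the filter it lay close to the threshold in DESeq2, whereas it was far from the threshold in the edgeR fit reported above. The call of *C4b* thus depends on the filter and the tool. Without a filter edgeR called 2 genes for Jrt;Sost-ko against WT. Leaving out 1 mouse gave between 0 and 3 genes for Jrt;Sost-ko relative to Jrt;Sost-het and between 0 and 2 for Jrt;Sost-ko against WT. CPM factors were likewise first taken from all genes, which gave 535, 258 and 412 genes without overlap of the groups in place of 511, 252 and 405, with *Cfb* and *C4b* the members without overlap either way. Of the 36 relations with marker lists, 7 passed without centring, 0 without the 2 farthest mice and 2 without WT mice 3 and 4, in fits with fewer mice. Replicate numbers were given in order of the labels and pair no mice. No paired analysis was possible because the labels name no litters or pairs, so any shared litter was not taken into account. Low counts limit *Cfb* and *Cpn1*.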
